A study of Homo sapiens with 16 samples.

Results

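The polyamine genes described here are 10 genes taken by symbol: ODC1, OAZ1, OAZ2, AZIN1, SRM, SMS, AMD1, SAT1, SMOX and EIF5A. All 10 were present in both deposited tables, of 8657 genes in the table of control lentivirus cells and 7433 genes in the table of complemented cells, with 7386 genes in both. The cells were HCT-116, a human colorectal cancer line, made to express Oryza sativa TIR1 from a CMV promoter. Their DDX3X carried a mini-AID degron, so that the auxin indole-3-acetic acid (IAA) removes the protein, and the degron line was grown from single colonies. There were 4 conditions: lentiCTRL cells with DMSO, lentiCTRL cells with 500 µM IAA, and cells with lentiDDX3X or lentiDDX3Y, both with 500 µM IAA, all for 48 h. The introduced proteins were FLAG-tagged and the complemented cells were sorted on a fluorescent marker. Each condition had 2 replicates, each with 1 ribosome profiling and 1 RNA-seq library, 16 in all.

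Putrescine, spermidine and spermine are small positively charged molecules that growing cells need for translation. Ornithine decarboxylase (ODC1) makes putrescine from ornithine, S-adenosylmethionine decarboxylase (AMD1) supplies the aminopropyl donor, and spermidine synthase (SRM) and spermine synthase (SMS) build the longer molecules. Cells hold polyamine levels steady largely through translation and protein turnover: antizymes bind ODC1 and send it to the proteasome, and are themselves made by a ribosomal frameshift that polyamines promote. Upstream reading frames in several of these messages are well known to limit ribosome access to the coding sequence.

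Upstream reading frames of AMD1 and SAT1 and the frameshift sites of the antizymes were read from the reference. They are shown because the footprint values below are set beside them. Footprints at these sequences themselves were not examined. AMD1 has a short upstream reading frame close to the cap, at chr6:110874796-110874816 on the plus strand of hg38, and SAT1 has a shorter one at chrX:23783235-23783249 on the plus strand, both within 1 exon of the 5′ leader. In the lines below, capitals mark the upstream start and stop codons.
AMD1: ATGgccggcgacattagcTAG
SAT1: ATGgtgccagccTGA
The antizyme frameshift sites lie inside coding exons, at chr19:2271428-2271457 on the plus strand for OAZ1 and at chr15:64691501-64691530 on the minus strand for OAZ2. Here capitals mark the stop codon of the first frame, which follows 68 codons in OAZ1 and 32 codons in OAZ2.
OAZ1: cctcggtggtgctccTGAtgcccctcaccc
OAZ2: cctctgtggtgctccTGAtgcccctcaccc
The windows are identical at 29 of 30 bases. GENCODE leaves out the T of this stop codon from the annotated transcript of both genes, which joins the frames into 1 coding sequence. How the deposited counts treated this stop is not stated.

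The values are the authors' base means, which are means of normalized counts over the libraries of a table. The control set is taken to average the 4 lentiCTRL libraries of a kind, DMSO and IAA together, and the complemented set the 4 libraries of the lentiDDX3X and lentiDDX3Y cells. With 1 mean per gene, no spread between replicates can be given, no condition can be compared with another within a set, and the depth of each library is unknown. The sets were normalized separately. They differ in lentivirus, and with it in the introduced DDX3X or DDX3Y. They also differ in treatment, since some control libraries had DMSO and all complemented libraries had IAA. The control set thus averages cells that keep their own DDX3X with cells treated to remove it. These differences cannot be told apart in a difference between sets. DDX3Y was not listed in the control set and had an RNA base mean of 3526 and a footprint base mean of 175 in the complemented set, while DDX3X was listed in both. Of 10 markers of colorectal epithelium 5 were listed in both sets (EPCAM, CDH1, KRT8, KRT18 and CDX2), and KRT20, VIL1, CDX1, LGALS4 and CEACAM5 were not. Of 9 markers of other cell types none was listed in the complemented set and 1, COL1A1, in the control set, with a footprint base mean of 10.6. The tables start at footprint base means of 10.0 and 20.004, so a gene that is not listed may still be expressed.

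ODC1, the first enzyme of the pathway, was rich in RNA but had few footprints for its RNA (ENSG00000115758, chromosome 2, 10439968 to 10448327, minus strand). In the control set its RNA base mean was 5623, higher than or equal to 95.5% of genes, and its footprint base mean was 32.6, at the 48.1th percentile. In the complemented set the RNA base mean was 3949 (91.0th percentile) and the footprint base mean 58.2 (54.9th percentile). The message was thus among the abundant ones in both sets, with a footprint count near that of the median gene. Per 1000 normalized RNA counts ODC1 had 5.80 footprint counts in the control set and 14.7 in the complemented set, against a median over all genes of 45.7 and 55.6. On the log2 scale, and relative to the median gene, footprints per RNA were -2.98 in the control set, or 0.127 times the median. This placed ODC1 at the 0.820th percentile of 8657 genes. In the complemented set it was at -1.92, or 0.265 times the median, at the 2.88th percentile of 7433 genes. Genes with fewer footprints than the lowest listed are not part of these percentiles, so only abundant messages could rank below ODC1. At or below the median RNA base mean, 868 in the control set and 1084 in the complemented set, no listed gene could do so. Low percentiles of footprints per RNA given for other genes carry the same kind of limit.

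The other enzymes of synthesis had fewer footprints per RNA than the median gene in both sets. SMS, spermine synthase (ENSG00000102172, chromosome X, 21940709 to 21994837), had RNA base means of 1832 and 1918 in the control and complemented sets and footprint base means of 20.03 and 22.9. Its footprints per RNA were -2.06 and -2.22 relative to the median gene, at the 4.51th and 1.56th percentiles, which made it the lowest of the 10 genes in the complemented set. Its footprint base mean there was near the lowest listed, 20.004, and genes with fewer footprints are not part of this percentile. AMD1 (ENSG00000123505, chromosome 6, 110874770 to 110898879), the enzyme whose upstream reading frame is printed above, had RNA base means of 1984 and 1776 and footprint base means of 28.0 and 27.3. This gave log2 footprints per RNA of -1.70 and -1.85, at the 7.95th and 3.31th percentiles. SRM, spermidine synthase (ENSG00000116649, chromosome 1, 11054584 to 11060020), lay closer to the median. Its RNA base means were 2250 and 1700 and its footprint base means 48.0 and 64.0, so that log2 footprints per RNA were -1.10 and -0.56, at the 17.2th and 26.6th percentiles. These ranks depend on which genes are compared. Set against genes with both base means of at least 100, SRM was at the 7.55th percentile in the control set and the 15.5th in the complemented set. In the control set AMD1 was then at the 2.97th and SMS at the 1.68th. SRM, AMD1 and SMS had fewer footprints than this cutoff and are not among the genes kept. The cutoff keeps genes with high footprint counts, so the lower ranks follow in part from it.

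Among the regulators of ODC1 the antizyme OAZ1 stood at the other end of the order (ENSG00000104904, chromosome 19, 2269509 to 2273490). Its RNA base means were 8012 and 8667 and its footprint base means 462 and 514, at or above the 97th percentile in each case. OAZ1 had 0.33 and 0.09 log2 footprints per RNA relative to the median gene, the single value above the median among the 10 genes in each set, but it was at -0.21 and -0.23 relative to the genes with both base means of at least 100. OAZ2, a second antizyme (ENSG00000180304, chromosome 15, 64687573 to 64703281), was less abundant, with RNA base means of 946 and 1246 and footprint base means of 27.0 and 47.9. Its log2 footprints per RNA were -0.68 and -0.53. OAZ1 and OAZ2 thus differed by far more in RNA than in footprints per RNA. AZIN1, the antizyme inhibitor, resembles ODC1 but has no decarboxylase activity and frees ODC1 from antizyme (ENSG00000155096, chromosome 8, 102826111 to 102893864). It had RNA base means of 2805 and 2976 and footprint base means of 49.7 and 57.5, giving log2 footprints per RNA of -1.37 and -1.53.

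The enzymes of polyamine breakdown differed from each other. SAT1, the acetyltransferase that starts the export and breakdown of polyamines (ENSG00000130066, chromosome X, 23783173 to 23786210), had RNA base means of 2681 and 5496 in the control and complemented sets and footprint base means of 50.0 and 109. Both quantities were higher in the complemented set, and log2 footprints per RNA were -1.30 and -1.48. SMOX, which oxidizes spermine (ENSG00000088826, chromosome 20, 4120980 to 4187747), had RNA base means of 1673 and 1441, footprint base means of 52.4 and 49.7, and log2 footprints per RNA of -0.55 and -0.69. EIF5A, the translation factor that carries hypusine, a residue made from spermidine (ENSG00000132507, chromosome 17, 7306999 to 7312463), had RNA base means of 3819 and 3551 and footprint base means of 160 and 159. Its log2 footprints per RNA of -0.13 and -0.31 were the nearest to those of OAZ1. GENCODE v44 holds pseudogenes named after AMD1 (5), SRM (3), EIF5A (3), OAZ1 (1) and SMS (1). Reads of these genes may be shared with the copies, so their counts are uncertain. Pseudogenes under other names were not counted, so the other genes may have copies too.

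**Figure D1:**
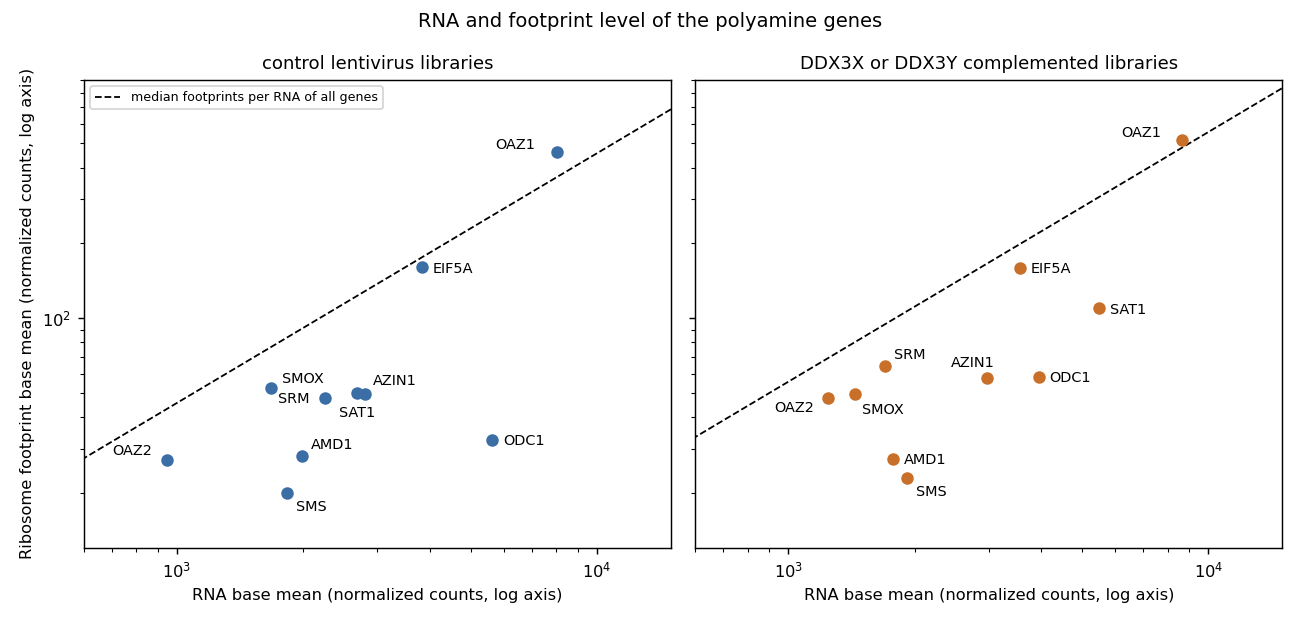
RNA base mean (x axis) against ribosome footprint base mean (y axis), both in normalized counts on log axes, for the 10 polyamine genes in the control lentivirus libraries (left) and the complemented libraries (right). Each point is the authors' mean over the libraries of a table, and the dashed line is the median footprints per RNA of all genes. OAZ1 lies above the line at 462 and 514 footprints, and ODC1 lies far below it at 32.6 in the control set.

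Levels can be compared between genes once they are divided by coding length, which was taken from the canonical transcript. In RNA base mean per kb of coding sequence the control set ran from 11662 for OAZ1, 8214 for EIF5A and 5195 for SAT1 to 1003 for SMOX, and ODC1 was the fourth at 4057. In footprint base mean per kb it ran from 672 for OAZ1, 344 for EIF5A and 96.8 for SAT1 to 18.2 for SMS, and ODC1 was the ninth at 23.5. In the complemented set ODC1 was again the fourth in RNA, at 2849 per kb, and the seventh in footprints, at 42.0 per kb. With the longest annotated coding length of each gene ODC1 was the eighth and the sixth in footprints, since AMD1 was then at 20.1 per kb in the control set and AZIN1 at 39.9 per kb in the complemented set. Under either length ODC1 ranked lower among the 10 genes in footprints than in RNA in both sets.

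In 6 of the 10 genes footprints per RNA lay below the lower quartile of all genes in each set, and 1 of 10 lay above the median. The lower quartile was -0.76 in the control set and -0.61 in the complemented set. The median over the 10 genes was -1.20 and -1.09, where the median over all genes is set at 0 by the centring. In both sets ODC1, SMS, AMD1, AZIN1 and SAT1 were the lowest of the 10, with SRM the next in the control set and SMOX in the complemented set. The genes were chosen as a pathway and no test of the list was made.

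Steps between neighbours in this order exceeded a measure of spread only in part. As a measure of spread, the difference between the sets was taken over the 500 shared genes nearest in footprint base mean, as a scaled median absolute deviation. It covers differences of genes as well as error, and each step is set against the spread of the lower gene. A bias of a gene that is alike in both sets cancels in it, so a wider step is not a test between genes. The spread was 0.29 on the log2 scale for ODC1, 0.35 for SMS and 0.18 for OAZ1. In the control set ODC1 lay 0.91 below SMS, which is more than that spread, and SMS lay 0.37 below AMD1, just above it. AMD1 and AZIN1 differed by 0.33 and AZIN1 and SAT1 by 0.07, both within it. SRM lay below OAZ2, and SMOX below EIF5A, by 0.42 each, more than the spread of 0.28 for both. The step from SRM to OAZ2 was 0.03 in the complemented set, and SRM itself differed by 0.60 between the sets. This step thus exceeded the spread in the control set only. In the complemented set SMS, ODC1 and AMD1 lay within 0.37 of each other, and the step from ODC1 to AMD1 was 0.06. The 0.79 between SAT1 and SMOX was the widest step there, and the 0.22 between OAZ2 and EIF5A lay within the spread. EIF5A lay below OAZ1 by 0.46 and 0.41, more than the spread of 0.21 for EIF5A in each set.

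**Figure D2:**
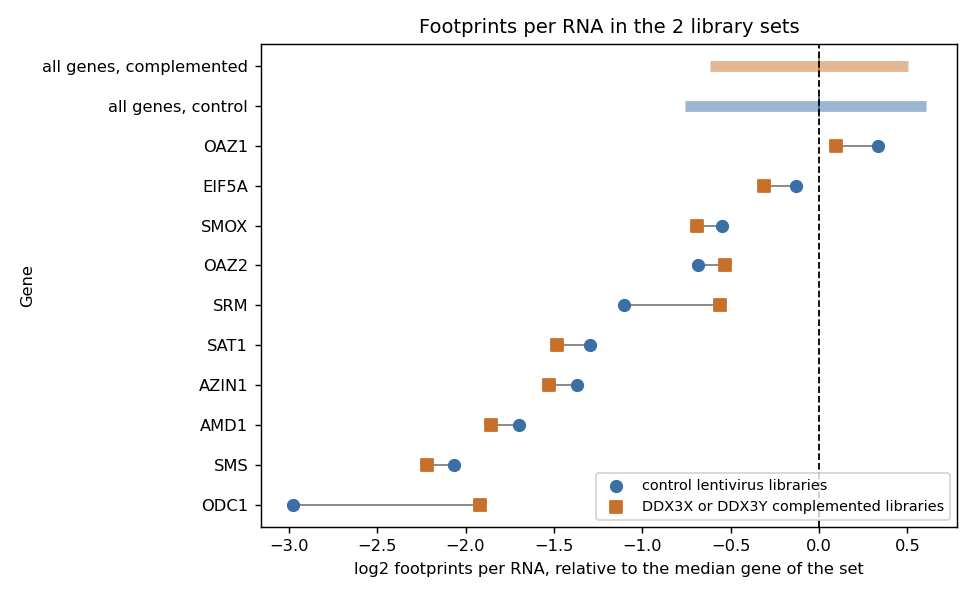
Log2 footprints per RNA of each polyamine gene relative to the median gene of its set (x axis), in the control lentivirus libraries (circles) and the complemented libraries (squares). Each symbol is 1 ratio of the authors' means, and the bars at the top span the quartiles of all genes. ODC1 moves from -2.98 to -1.92 between the sets, SRM from -1.10 to -0.56, and the other 8 genes stay close to their place.

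ODC1 was also the member whose footprints per RNA differed most between the sets. Relative to the median of the 7386 shared genes, its RNA was 0.63 lower on the log2 scale in the complemented set, at the 1.29th percentile (complemented minus control, -0.63, spread over similar genes 0.23). Its footprints were 0.47 higher, at the 91.3th percentile (spread 0.28). Footprints per RNA were therefore 1.13 higher, or 2.19-fold, at the 99.6th percentile of shared genes, where the spread over similar genes was 0.29. RNA and footprints of ODC1 thus differed in opposite directions. SRM came next, with -0.52 in RNA, 0.05 in footprints and 0.60 in footprints per RNA, at the 3.01th, 56.8th and 93.0th percentiles.

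SAT1 differed in another way. Its RNA was higher in the complemented set by 0.92 on the log2 scale, or 1.89-fold, at the 99.5th percentile of shared genes, and its footprints by 0.76, or 1.70-fold, at the 97.5th percentile. Footprints per RNA differed by -0.12, within the spread of 0.27, so RNA and footprints were higher together. For OAZ1, OAZ2, AZIN1, SMS, AMD1, SMOX and EIF5A the difference in footprints per RNA ran from -0.17 to 0.22, each within the spread over similar genes. Among these, OAZ2 was higher in RNA by 0.28 and in footprints by 0.46, and AMD1, SMOX and EIF5A were lower in footprints, at -0.40, -0.44 and -0.37. Before the centring, the median shared gene was 0.12 higher in RNA and 0.37 higher in footprints in the complemented set, and 0.22 higher in footprints per RNA. No value per library was at hand, so none of these differences could be set against replicate error.

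**Figure D3:**
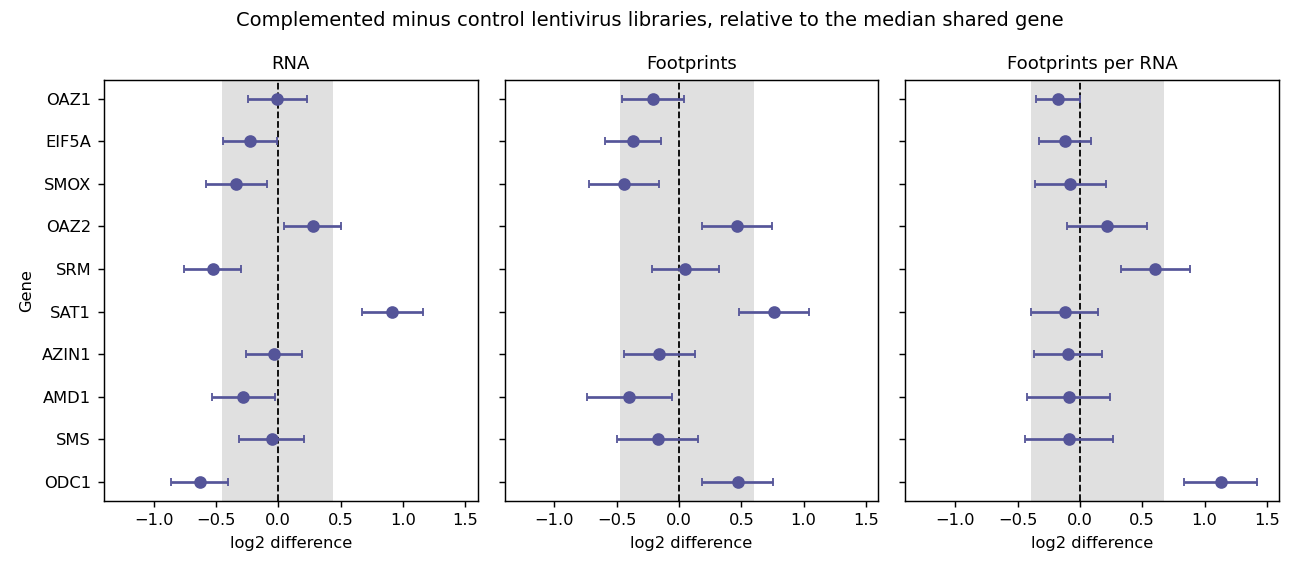
Log2 difference between the complemented and the control lentivirus libraries (x axis) in RNA, footprints and footprints per RNA for each polyamine gene, relative to the median shared gene. Bars are the scaled median absolute deviation over the 500 shared genes nearest in footprint base mean, and grey bands span the 5th to the 95th percentile of all shared genes. ODC1 leaves the band to the left in RNA (-0.63) and to the right in footprints per RNA (1.13). SRM also leaves it to the left in RNA (-0.52), and SAT1 leaves it to the right in RNA (0.92) and footprints (0.76).

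The 5′ leaders of these genes differ widely in length and GC content. AMD1 had a leader of 321 nt with a GC content of 43.0%, at the 1.52th percentile of genes in the control table, whereas SRM had 75 nt with 88.0%, at the 99.3th percentile. ODC1, with the lowest footprints per RNA in the control set, had 334 nt (87.2th percentile) and a GC content of 65.9% (41.1th percentile), near the median of 68.5%. SMS had 116 nt and 76.7%, OAZ2 233 nt and 73.4%, SMOX 176 nt and 72.2%, EIF5A 146 nt and 70.5%, and OAZ1 79 nt and 69.6%. SAT1 had 179 nt with 57.5%, and AZIN1 had the longest leader at 590 nt with 53.6%. The pair with the lowest and the highest GC content, AMD1 and SRM, both had fewer footprints per RNA than the median gene.

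An upstream AUG was present in the leaders of 6 of the 10 genes, against 34.3% of genes in the control table and 32.6% in the complemented table. ODC1 had 1, opening a frame of 11 codons with its stop, 173 nt from the cap and 128 nt before the start codon, at chr2:10448122-10448154. The frame printed above for AMD1 begins 11 nt from the cap, has 7 codons with its stop and ends 289 nt before the start codon. AZIN1 had 3 closed frames, of 18, 17 and 10 codons, the last of which ends 1 nt before the start codon. OAZ2 had 2 that share a stop, of 40 and 38 codons. These begin 0 and 6 nt from the annotated cap, and 2 of 3 transcripts of OAZ2 had an upstream AUG. SAT1 had the frame of 5 codons printed above and another of 30 codons that runs into the coding sequence, and the AUG of SMS, 93 nt from the cap, opens a frame of 31 codons that also overlaps the coding sequence. OAZ1, SRM, SMOX and EIF5A had none in the canonical transcript, though 1 of 6 transcripts of SMOX and 3 of 8 of EIF5A had one.

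The 6 genes with an upstream AUG had log2 footprints per RNA from -2.98 to -0.68, with a median of -1.53, in the control set. The 4 genes without one ran from -1.10 to 0.33, with a median of -0.34. In the complemented set the ranges were -2.22 to -0.53 (median -1.69) and -0.69 to 0.09 (median -0.44). The groups overlapped through OAZ2 on the one side and SRM or SMOX on the other. Over all genes of the control table the median was -0.68 for 2963 genes with an upstream AUG and 0.29 for 5683 without, and in the complemented table -0.60 for 2416 and 0.24 for 5006, so that the direction among the 10 genes was that of the whole table. When a gene was classed by any complete transcript, the median of genes with an upstream AUG was -0.24 and -0.21. Leader length and RNA level, were not held equal, and their part in the difference was not tested.

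**Figure D4:**
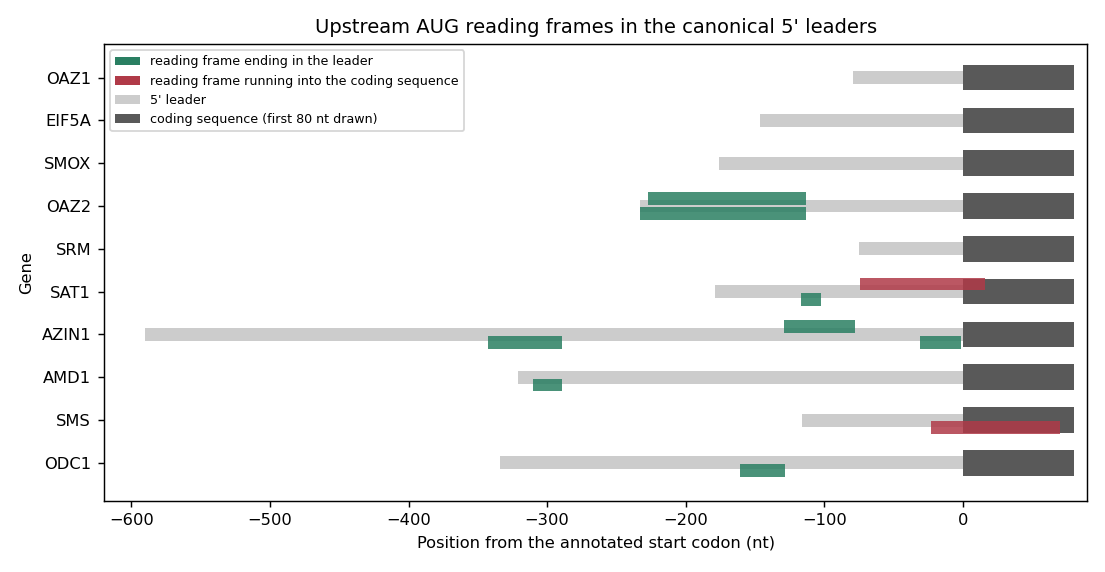
Canonical 5′ leaders of the polyamine genes (light bars, x axis in nt from the annotated start codon) with each reading frame that opens at an upstream AUG, in order of footprints per RNA in the control set from the bottom. Green frames end in the leader and red frames run into the coding sequence (dark). ODC1, SMS, AMD1, AZIN1 and SAT1, the 5 lowest genes, each carry at least 1 such frame, and of the 5 above them OAZ2 does.

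The wider pathway holds 26 further genes for transport, precursor supply, methionine salvage and hypusine, of which 19 were listed in each set. Of these, 12 lay above the median footprints per RNA in the control set and 13 in the complemented set, with medians of 0.47 and 0.15. Hypusine is made on EIF5A by DHPS and DOHH, at 0.14 and 0.65 in the control set and -0.01 and 0.46 in the complemented set. EIF5A2, the paralog of EIF5A, was at 0.79 and 0.96. OAT, which makes and uses ornithine, was at 0.95 and 0.73, MAT2A, which makes S-adenosylmethionine, at 0.28 and 0.15, and MTAP, which recycles the by-product of spermidine and spermine synthesis, at 0.74 and 0.44. SAT2, related in sequence to SAT1, was at -0.29 and -0.48. MYC, a transcription factor that acts on ODC1, had RNA base means of 4795 and 3241 and log2 footprints per RNA of 0.58 and 0.51. The transporters of the list were more spread. ATP13A3, a P5B ATPase that moves polyamines, had RNA base means of 4208 and 4651, footprint base means of 30.9 and 64.8, and log2 footprints per RNA of -2.64 and -2.00, the lowest of the 19 genes in both sets. Its leader of 525 nt holds an upstream AUG, as do those of ATP13A2, SLC18B1, SLC7A1, SLC3A2 and DOHH. The related ATP13A2 was at -1.62 and -1.45, whereas SLC3A2, a subunit of amino acid transporters, was at 0.93 and 0.58. SLC7A1, which imports arginine and ornithine, was at -0.003 in the control set and 0.162 in the complemented set. The 6 of the 19 genes with an upstream AUG had a median of -0.49 in the control set and -0.04 in the complemented set, and the 13 without had 0.57 and 0.15. PAOX, AZIN2, OAZ3, ARG1, ARG2, AGMAT and MRI1 were not listed.

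By distance in footprints per RNA over both sets, TPT1, RPL19 and RPS6 were the nearest to ODC1 among 1289 genes with footprint base means of at least 100. Their values were -3.004, -2.56 and -2.98 in the control set and -2.70, -2.58 and -2.70 in the complemented set, at distances of 0.78, 0.79 and 0.79. ODC1, at -1.92 in the complemented set, lay above all 3 there. Its own footprint base means of 32.6 and 58.2 were under that cutoff, so genes with as few footprints were not compared. ATP13A3, at -2.64 and -2.00, lay closer to ODC1 over both sets than these 3 but was under the cutoff.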

How the data were processed

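Ribosome profiling and RNA-seq of 16 libraries were used as 2 tables. Before mapping to hg38 the authors removed adapters, UMI duplicates and reads from rRNA or other small non-coding RNAs. Reads above 24 nt were then counted by them with Ribo-seQC, over coding sequences as the tables are named. The submitters' processing notes list STAR 2.6.0a, Bowtie2 and cutadapt. The gene annotation they counted over is not named in what was used here. From the deposited tables only the base means for RNA and ribosome footprints were used, which the authors made with DESeq2 as means of normalized counts. The tables also hold the authors' own fold changes, adjusted p-values and classes, none of which was used, so no test between conditions was made. The files do not list the libraries behind a mean, but DDX3Y is in 1 table only and no RNA mean is the same in both.

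Footprints per RNA are log2 of footprint over RNA base mean, with no pseudocount, centred on the median of all genes of a table. Coding length cancels in it. Percentiles count genes at or below a value. Leaders, coding lengths and upstream AUGs were taken from GENCODE v44 (GRCh38), using the transcript tagged canonical, found for 8646 of 8657 and 7422 of 7433 genes by gene ID. Coordinates are hg38, and sequences were read from hg38 and GENCODE v44, with none printed for AZIN1. Base means come without an estimate of replicate error, so their precision cannot be given, and low footprint counts limit it. The ratio and spread calculations were tested on simulated data (Python 3.11.15, numpy 2.4.6, pandas 2.3.3). The genes, the wider list, the markers and the rule for genes like ODC1 were chosen with earlier results of these data known. That rule took the 3 nearest genes with footprint base means of at least 100 in both tables.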

Additional observations from a re-analysis of the deposited data

How the results depend on the processing

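Centring on the summed base means in place of the median gene put ODC1 at -1.64 in the complemented set and -2.74 in the control set. Centring on genes with both base means of at least 100 (1312 genes in the control table and 1798 in the complemented table) put it at -3.52 in the control set and -2.24 in the complemented set, and its rank in the control set at the 0.534th percentile. The control table starts at lower base means than the cutoff of 20 in the study's methods. Among its genes above 20, ODC1 was at the 0.601th percentile and SRM at the 13.3th. Relative to the genes of at least 100, 0 of the 10 genes lay above the median in either set, in place of 1. OAZ1 then turned to -0.21 in the control set and -0.23 in the complemented set. That cutoff keeps genes with high footprint counts, and most of the 10 genes, ODC1 among them, fall below it. Lower values and ranks relative to the genes kept thus follow in part from the cutoff. EIF5A, at -0.13 in the control set, was at 0.11 when centred on the summed base means. Centring shifts all genes of a set alike and leaves their order. A pseudocount of 1 or centring on the genes of both tables moved none of the 20 values of footprints per RNA by more than the spread over similar genes. The difference of ODC1 between the sets was 1.12 with a pseudocount of 1 and 1.25 when centred on genes of at least 100, and the class by any complete transcript, printed with the leaders, moved the median of genes with an upstream AUG; these alternatives were chosen after seeing the data. Leaders averaged over transcripts differed from the canonical one in 16 of 20 values, and the longest coding length moved 8 of 40 levels per length. No paired analysis was possible because the tables hold no value per replicate, and for the same reason no replicate could be left out. Footprint base means under 64.0 in 8 of the 10 genes in the control set limit the precision.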
